A study of Homo sapiens with 6 samples.

Results

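The 9 genes described here encode the parts of the MHC class I antigen presentation pathway: the heavy chains HLA-B, HLA-C and HLA-E, the light chain B2M, the peptide transporter subunits TAP1 and TAP2, the loading factor TAPBP (tapasin), and the inducible proteasome subunits PSMB8 and PSMB9. They were taken by symbol from a read count table of 61661 rows, and all 9 had a row. The table holds 6 RNA-seq libraries of K562, a human chronic myeloid leukemia line grown from a pleural effusion in blast phase, in groups of 2 that the labels name shCTR, shMETTL3 and shMETTL14. The cells of every group were cultured alike in RPMI1640 with serum, and carried a lentiviral short hairpin RNA with puromycin selection according to the study's methods, which describe the control hairpin (a nonsense insert) and the METTL3 hairpin; shMETTL14 is known from the labels alone. The labels give the genotype as WT for shCTR and as knockdown of the named gene for the others, with no time point. METTL3 is the catalytic subunit and METTL14 the RNA-binding partner of the complex that writes N6-methyladenosine on mRNA. Comparing the groups asks whether class I transcripts differ when either subunit is lowered. Nothing says that the 2 libraries of a group came from separate cultures, so the p-values measure the spread between these libraries, which may be technical.

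Library totals ran from 19292574 to 20115304 reads. METTL3 stood at 1788 and 1728 reads in shCTR, 1031 and 938 in shMETTL3, and 1731 and 1498 in shMETTL14 libraries. METTL14 stood at 656 and 655 reads in shCTR, 752 and 710 in shMETTL3, and 375 and 404 in shMETTL14 libraries, so each targeted gene was lowest in the group named for it. None of the 11 markers of K562 and its erythroid features was at or under 3 reads. Their summed level ran from 2180 to 2385 CPM (reads scaled by library total and TMM factor). Its largest part was TFRC, at 739.6 to 894.4 CPM, whereas the fetal globin genes were low. HBG1 had 10 to 22 reads and HBG2 125 to 138 reads a library. The T, B and natural killer cell lists summed to between 0.867 and 6.18 CPM. The 5 monocyte and dendritic cell markers summed to between 42.2 and 44.0 CPM in shCTR, 15.7 and 16.6 in the METTL3 and 60.0 and 65.2 in the METTL14 knockdown, but 4 of them, CD14, CSF1R, FCER1A and CD1C, had at most 3 reads in every library. The 5 epithelial markers summed to 501.5 to 524.8 CPM in shCTR libraries, 399.0 to 418.8 with METTL3 knockdown and 545.7 to 575.1 with METTL14 knockdown, with CDH1 at 0. The other epithelial markers did not all move together. EPCAM averaged 54.6 CPM in shCTR, 36.8 in shMETTL3 and 41.3 in shMETTL14 libraries. In the same order KRT8, the largest part, averaged 303.9, 234.9 and 336.2 CPM, KRT18 85.1, 71.0 and 87.0, and KRT19 69.4, 66.2 and 95.9. These marker sums move with the knockdown groups, and their part in the results below was not tested.

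Class I molecules display peptides cut from the cell's own proteins. The proteasome makes the peptides, the TAP1-TAP2 transporter carries them into the endoplasmic reticulum, and tapasin holds the transporter next to an empty heavy chain paired with B2M until a peptide is bound. Interferon induces most of these genes together through IRF1 and the transactivator NLRC5, and exchanges the constitutive proteasome subunits PSMB5, PSMB6 and PSMB7 for PSMB8, PSMB9 and PSMB10. K562 cells are known for very low class I on their surface and are a standard target of natural killer cells, which recognise cells that lack it.

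Interferon and NF-kappaB signals are known to act on class I promoters through short sequence elements, so stretches of 6 promoters that hold a whole match before the start are shown. RefSeq windows of 250 bases before to 50 after a transcript start (GRCh38.p14) were matched for 8 of the 9 genes; HLA-E was not matched. Both strands were searched for TTTCNNTT, the core of the interferon-stimulated element, for the longer element in which that core is followed by TC, and for the kappaB motif. The core was in 22.8% of all 35116 windows, the longer element in 3.57% and the kappaB motif in 11.3%. Capitals mark these matches, and the motifs overlap where a run of capitals holds more than one.
HLA-B (minus strand, chr6:31357312-31357371): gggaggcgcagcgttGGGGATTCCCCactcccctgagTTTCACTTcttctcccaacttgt
HLA-C (minus strand, chr6:31272221-31272279): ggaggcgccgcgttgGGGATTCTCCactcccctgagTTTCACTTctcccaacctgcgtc
B2M (plus strand, chr15:44711358-44711416): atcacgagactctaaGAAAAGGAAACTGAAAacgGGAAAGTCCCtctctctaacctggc
TAP1 (minus strand, chr6:32853752-32853853): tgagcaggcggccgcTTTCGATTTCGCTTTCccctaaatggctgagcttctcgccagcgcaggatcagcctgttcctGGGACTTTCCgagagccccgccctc
TAP2 (minus strand, chr6:32838773-32838816): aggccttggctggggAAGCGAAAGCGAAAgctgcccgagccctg
TAPBP (minus strand, chr6:33314079-33314149): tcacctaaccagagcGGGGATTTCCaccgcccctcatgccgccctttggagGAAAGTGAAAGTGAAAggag
HLA-B and HLA-C held the core beside the kappaB motif at nearly the same distance from the start. B2M, TAP1 and TAPBP each held the longer element in 2 overlapping copies and a kappaB motif, while TAP2 held 1 copy and no kappaB motif. For TAP1 this was 1 of its 2 windows, and the other held no match to any of the 3. One of the 2 PSMB8 windows held the longer element, 4 bases before its start. The PSMB9 window held no match to any of the 3. A match is a description of the letters in these windows and not evidence of binding.

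The class I genes stood at very different levels. On the TPM scale, which also divides by the length of the longest annotated transcript, B2M was highest in shCTR cells at 314.0 ± 1.84 (SD, n = 2), followed by HLA-E at 129.4 ± 8.38 and TAPBP at 70.7 ± 3.77. HLA-C stood at 43.5 ± 1.40 TPM, TAP1 at 26.1 ± 1.14 and TAP2 at 25.1 ± 1.49, and the last 2 did not differ beyond their spread. PSMB9 stood at 14.8 ± 0.572 TPM and HLA-B at 11.1 ± 1.01. PSMB8, the inducible chymotrypsin-like subunit, was last at 0.108 TPM. The place of PSMB9 depends on the length used: its longest annotated transcript has 2676 bases and its longest protein-coding one 792, and with coding transcripts it stood at 44.8 ± 1.64 TPM, next to HLA-C at 47.0 ± 1.42. Among relatives, HLA-F had 0 to 6 reads in every library and HLA-G none. Reads that match several HLA genes may have been dropped or shared out by the counting, and whether that lowered any of these counts was not tested.

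**Figure D1:**
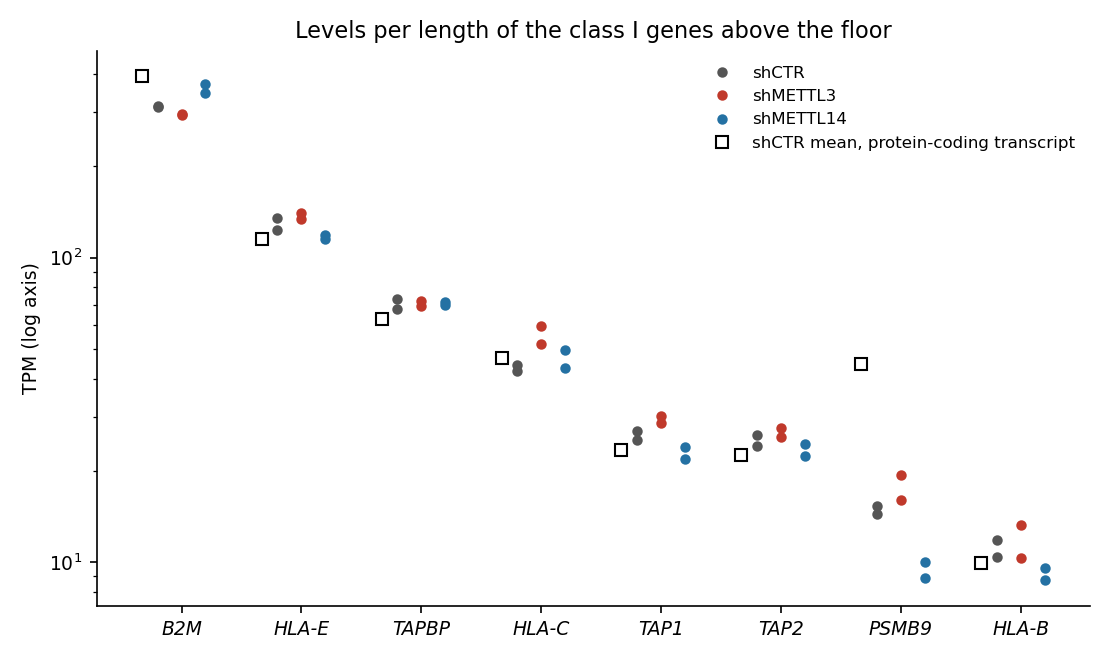
Level per length of each class I gene except PSMB8, which was at or near 0, in TPM on a log axis. Each dot is a library, coloured by group, from the longest annotated transcript; open squares give the shCTR mean from the longest protein-coding transcript. B2M is highest at 314.0 TPM and HLA-B lowest at 11.1 TPM in shCTR cells, and PSMB9 is the gene whose place changes with the length.

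All 8 genes above the low-count filter were tested, and 5 of their 24 comparisons passed an adjusted p of 0.05 in edgeR's quasi-likelihood test (Benjamini-Hochberg adjustment over 17686 genes). In shMETTL3 against shCTR cells HLA-C rose and none fell (B2M was lower at an unadjusted p of 0.0207 by edgeR), where 8.73% of all tested genes were called higher, 7.73% lower and 16.5% in either direction. In shMETTL14 against shCTR cells PSMB9 fell and none rose (B2M was higher at an unadjusted p of 0.00944 by edgeR), where 3.43% of all genes were called higher, 3.26% lower and 6.69% in either direction. Between the knockdowns, TAP1 and PSMB9 were higher and B2M lower in shMETTL3 than in shMETTL14 cells, where 6.65% of all genes were called higher, 5.49% lower and 12.1% in either direction. The median log2 fold change over the 8 genes was 0.03, -0.15 and 0.21 in these 3 comparisons, and the median over all tested genes was within 0.01 of 0 in each. The first 2 comparisons share the shCTR libraries. In bulk RNA, fewer cells expressing a gene and less RNA per cell cannot be told apart.

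**Figure D2:**
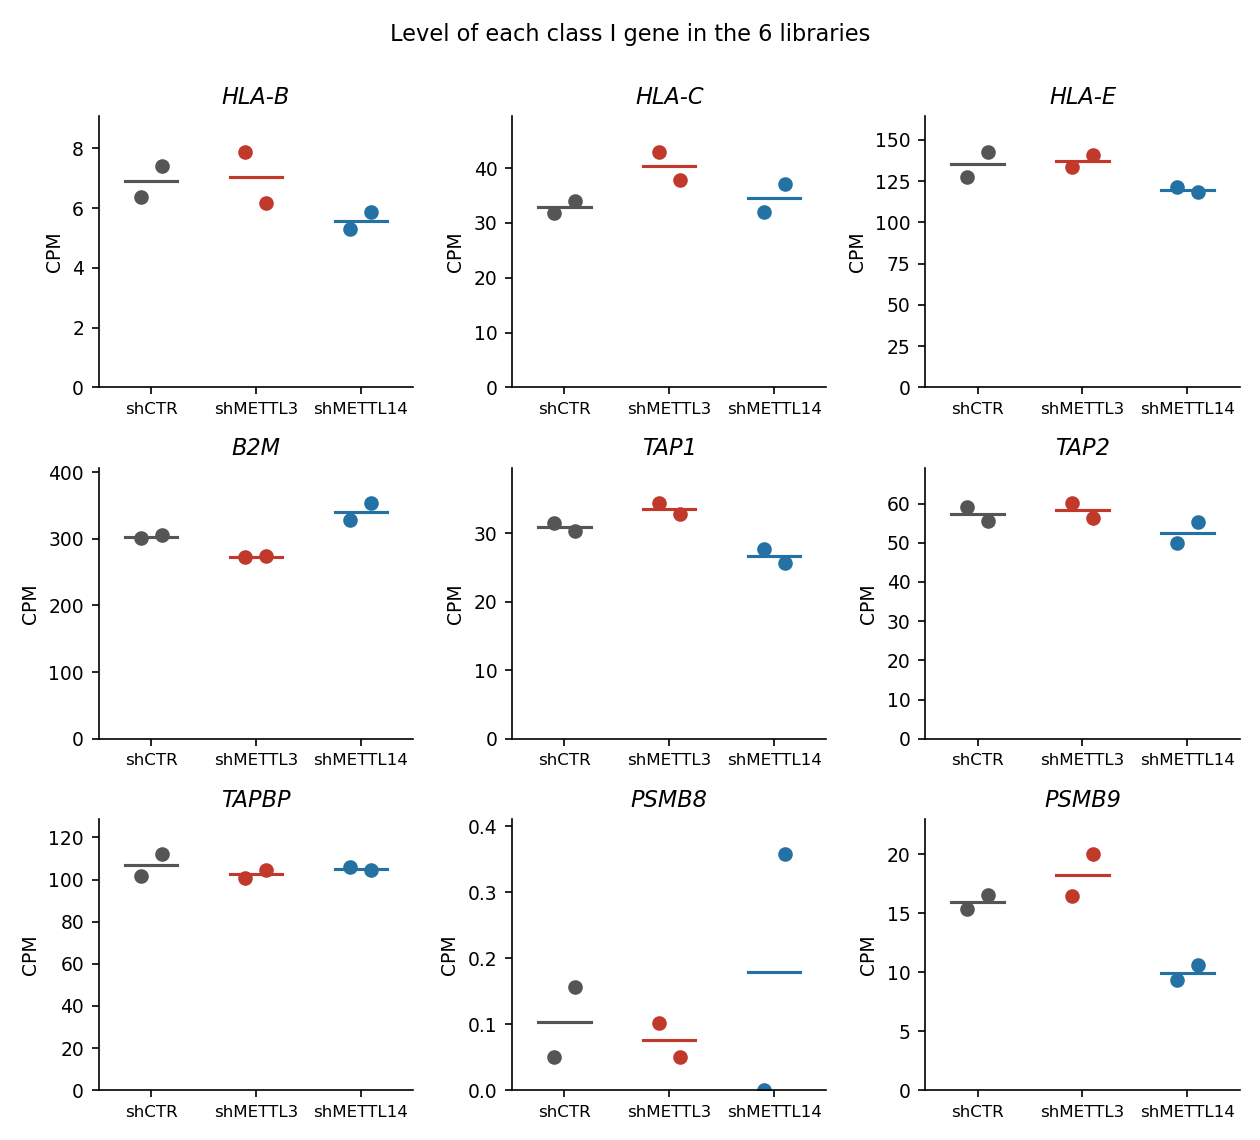
CPM of each of the 9 genes in the 6 libraries, on axes that start at 0. Dots are libraries and lines are group means of 2. Both shMETTL14 libraries of PSMB9, at 9.31 and 10.6 CPM, lie below its other libraries, while PSMB8 stays under 0.4 CPM.

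**Figure D3:**
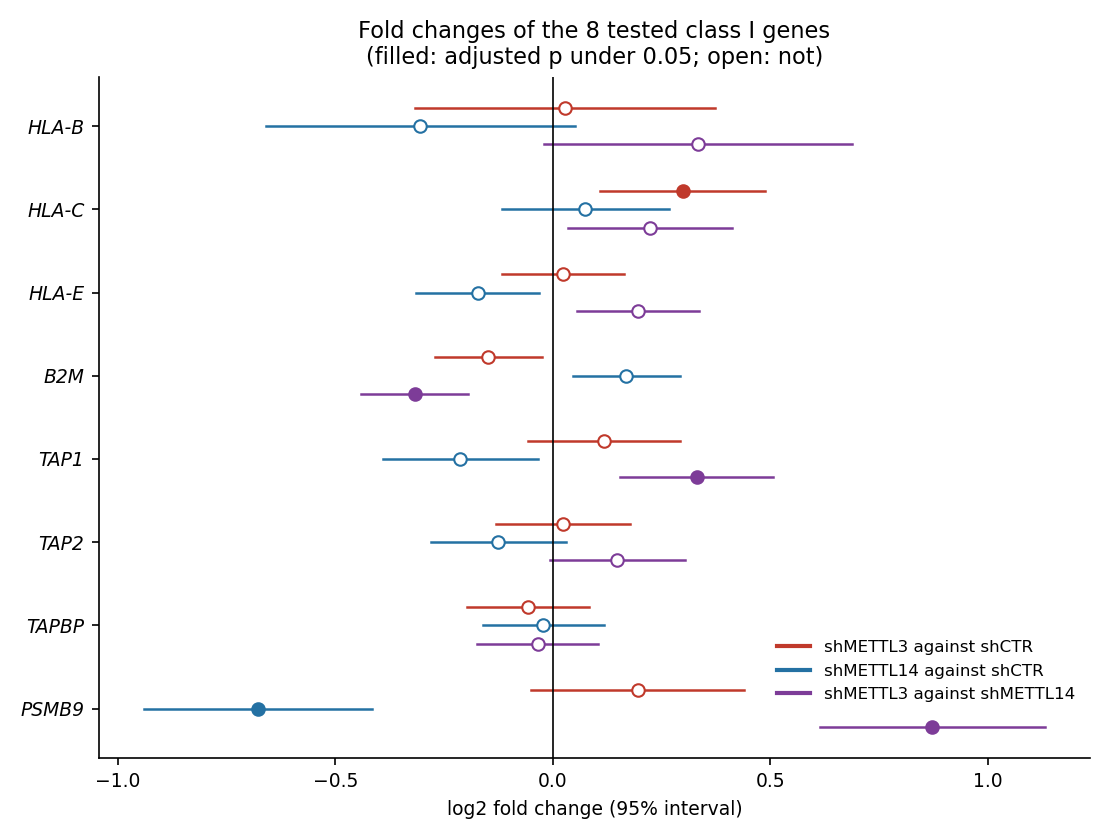
Log2 fold changes of the 8 tested genes in the 3 comparisons, with 95% intervals from the edgeR fit. Filled points passed the adjusted threshold: HLA-C in shMETTL3 against shCTR, PSMB9 in shMETTL14 against shCTR, and B2M, TAP1 and PSMB9 between the knockdowns.

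Heavy chains carry the peptide groove. HLA-C (ENSG00000204525, chr6:31268749-31272130, minus strand), whose product is also a ligand of inhibitory natural killer receptors, was at 31.7 and 34.0 CPM in shCTR, 43.0 and 37.8 in shMETTL3, and 32.0 and 37.2 in shMETTL14 libraries. Both shMETTL3 libraries were above both shCTR libraries, and the shMETTL14 libraries overlapped the shCTR libraries and lay below both shMETTL3 libraries. HLA-C rose 1.23-fold in shMETTL3 cells (log2 fold change 0.30, SE 0.0907, adjusted p = 0.0284 by edgeR). This call rests on single libraries: without shCTR replicate 1 the adjusted p was 0.137, without shMETTL3 replicate 1 it was 0.290, and over all 13 alternatives it ran from 0.0105 to 0.290. In shMETTL14 cells the log2 fold change was 0.07, with a 95% interval from -0.12 to 0.27.

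HLA-B (ENSG00000234745) was the lowest heavy chain among the 9 genes. It had 126 and 142 reads in shCTR, 155 and 124 in shMETTL3, and 104 and 115 in shMETTL14 libraries. The shCTR and shMETTL3 libraries overlapped, and both shMETTL14 libraries were below all others. Neither contrast with shCTR passed, at log2 fold changes of 0.03 (95% interval -0.32 to 0.37) and -0.30 (-0.66 to 0.05). The annotated span of HLA-B, chr6:31269491-31357188 on the minus strand, reaches HLA-C through one long transcript, and 18.9% of its exon bases are shared with HLA-C or with a pseudogene on the other strand. That pseudogene had at most 3 reads in any library. Summed over HLA-B and HLA-C, the level was 39.7 ± 2.31 CPM in shCTR, 47.4 ± 4.92 in shMETTL3 and 40.2 ± 4.10 in shMETTL14 libraries (SD, n = 2), and the ratio of the shMETTL3 to the shCTR mean moved from 0.30 for HLA-C alone to 0.26 on the log2 scale.

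HLA-E (ENSG00000204592, chr6:30489467-30494205, plus strand) presents leader peptides of other class I chains to the inhibitory receptor NKG2A. It was the highest heavy chain, at 127.4 and 142.8 CPM in shCTR, 133.5 and 140.9 in shMETTL3, and 121.2 and 118.5 in shMETTL14 libraries. Both shMETTL14 libraries lay below all others, while the other groups overlapped. In shMETTL14 against shCTR cells the log2 fold change was -0.17 (SE 0.0677, adjusted p = 0.143 by edgeR), and it was -0.25 (adjusted p = 0.0265) without shCTR replicate 1 and -0.09 (adjusted p = 0.423) without shCTR replicate 2. Between the knockdowns it was 0.20 (adjusted p = 0.0664 by edgeR), and 6 of its 13 alternatives passed the threshold.

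B2M (ENSG00000166710, chr15:44711487-44718877, plus strand), the light chain that all class I heavy chains need to reach the surface, lies outside the MHC. It stood at 300.7 and 305.0 CPM in shCTR, 272.0 and 274.5 in shMETTL3, and 327.4 and 353.5 in shMETTL14 libraries. The 3 groups did not overlap, with shMETTL3 lowest and shMETTL14 highest. Neither contrast with shCTR passed, at log2 fold changes of -0.15 (SE 0.0589, adjusted p = 0.0933 by edgeR) and 0.17 (SE 0.0587, adjusted p = 0.0946). Between the knockdowns B2M was lower with METTL3 knockdown, with a log2 fold change of -0.32 (SE 0.0588, adjusted p = 0.00102 by edgeR). This difference passed in all 13 alternatives, with adjusted p up to 0.0493.

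Between the knockdowns B2M differed in the opposite direction to TAP1 and PSMB9. Per base of transcript, the ratio of B2M to the sum of HLA-B, HLA-C and HLA-E was 1.79 and 1.63 in shCTR, 1.43 and 1.46 in shMETTL3, and 2.03 and 2.13 in shMETTL14 libraries. The groups did not overlap. The ratio uses the longest transcripts, and its size depends on that choice. With protein-coding lengths the shCTR level of B2M moved from 314.0 to 395.1 TPM, and the ratio was not computed with them. An exact permutation test of 2 against 2 libraries cannot go below 0.333, so none was run. B2M has no exon bases shared with another gene.

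TAP1 (ENSG00000168394, chr6:32845209-32853978, minus strand) and TAP2 (ENSG00000204267, chr6:32821833-32838780, minus strand) form the transporter. TAP1 stood at 31.6 and 30.4 CPM in shCTR, 34.4 and 32.8 in shMETTL3, and 27.7 and 25.7 in shMETTL14 libraries. The groups did not overlap, with shMETTL3 highest and shMETTL14 lowest, the reverse of B2M. TAP1 was 1.26-fold higher with METTL3 than with METTL14 knockdown (log2 fold change 0.33, SE 0.0845, adjusted p = 0.0128 by edgeR). The call was lost without any one of the 4 libraries compared, at adjusted p of 0.130 and 0.0553 without shMETTL3 replicate 1 and 2 and of 0.0601 and 0.189 without shMETTL14 replicate 1 and 2, and under DESeq2 (0.0678). Against shCTR the log2 fold changes were 0.12 and -0.21, and neither passed.

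TAP2 stood at 59.1 and 55.6 CPM in shCTR, 60.1 and 56.4 in shMETTL3, and 49.9 and 55.2 in shMETTL14 libraries. Both shMETTL14 libraries were below all the others, by little for replicate 2. None of its comparisons passed, at log2 fold changes of 0.02, -0.13 and 0.15. A same-strand gene model, ENSG00000250264, shares 32.3% of the exon bases of TAP2 and had 0 reads in every library.

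TAPBP (ENSG00000231925, chr6:33299694-33314387, minus strand), the chaperone that bridges transporter and heavy chain, had no log2 fold change beyond 0.06 in either direction. It stood at 101.5 and 111.9 CPM in shCTR, 100.5 and 104.6 in shMETTL3, and 105.9 and 104.3 in shMETTL14 libraries. The groups overlapped in each comparison. The 95% intervals of its log2 fold changes were -0.20 to 0.08, -0.16 to 0.12 and -0.17 to 0.10.

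PSMB9 (ENSG00000240065, chr6:32844136-32859585, plus strand), the inducible subunit also known as LMP2, had the largest fold changes of the 8 tested genes in the comparisons with shMETTL14. It had 303 and 317 reads in shCTR, 324 and 401 in shMETTL3, and 183 and 208 in shMETTL14 libraries, or 15.3 and 16.6, 16.5 and 19.98, and 9.31 and 10.6 CPM. Both shMETTL14 libraries were far below the others, and the shCTR and shMETTL3 libraries overlapped. PSMB9 fell to 0.625 of the shCTR level in shMETTL14 cells (log2 fold change -0.68, SE 0.126, adjusted p = 0.00199 by edgeR). Without shMETTL14 replicate 1 the adjusted p was 0.0821; in the other 12 alternatives the call stayed. The log2 fold change with METTL3 knockdown was 0.19 (95% interval -0.05 to 0.44, adjusted p = 0.278 by edgeR). PSMB9 was 1.83-fold higher with METTL3 than with METTL14 knockdown (log2 fold change 0.87, SE 0.124, adjusted p = 6.42e-05 by edgeR), in all 13 alternatives with adjusted p up to 0.00718.

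PSMB8 (ENSG00000204264, chr6:32840717-32844703, minus strand) lies between TAP2 and TAP1, overlaps the annotated span of PSMB9, and is also known as LMP7. It had 1 and 3 reads in shCTR, 2 and 1 in shMETTL3, and 0 and 7 in shMETTL14 libraries, which kept it out of the test. In 5 of 6 libraries it was at or under 3 reads, the floor used here for a count of 0, so no fold is given. PSMB8 shares 20.6% of its exon bases with PSMB9 and the antisense gene PSMB8-AS1. Whether the counting used strand is not given in the sources used here, and PSMB8-AS1 had at most 1 read in any library.

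In RefSeq, the nearer of 2 TAP1 starts and the PSMB9 start lie 488 bases apart on opposite strands, at bases 32853704 and 32854192 of chromosome 6. By these starts a single stretch of DNA holds both promoters. The GENCODE span of PSMB9 given above begins further upstream, at base 32844136, and takes in all of TAP1. The interferon and kappaB matches printed above for TAP1 lie in the TAP1 window at base 32853704. Both genes were lowest in both shMETTL14 libraries, where PSMB9 fell and TAP1 did not pass the test against shCTR. The log2 fold changes of shMETTL3 against shMETTL14 were 0.87 for PSMB9 and 0.33 for TAP1.

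The inducible subunits were a small share of the catalytic proteasome transcripts. Per length, PSMB9 made up 5.27% and 5.58% of PSMB9 plus PSMB6 in shCTR, 6.10% and 7.15% in shMETTL3, and 3.34% and 3.98% in shMETTL14 libraries. The shMETTL14 libraries were lowest and the shMETTL3 libraries highest. Their exact 95% binomial (Clopper-Pearson) intervals, which cover counting error only, were 2.87 to 3.87% and 3.45 to 4.58% in shMETTL14 and 4.68 to 5.92% and 4.97 to 6.25% in shCTR libraries. With coding transcripts the group means were 16.2% for shCTR, 19.3% for shMETTL3 and 11.4% for shMETTL14, in the same order. PSMB10, the third inducible subunit, made up 1.46%, 1.53% and 1.54% of PSMB10 plus PSMB7. PSMB8 made up at most 0.338% of PSMB8 plus PSMB5 in any library, or 0.592% with coding transcripts.

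**Figure D4:**
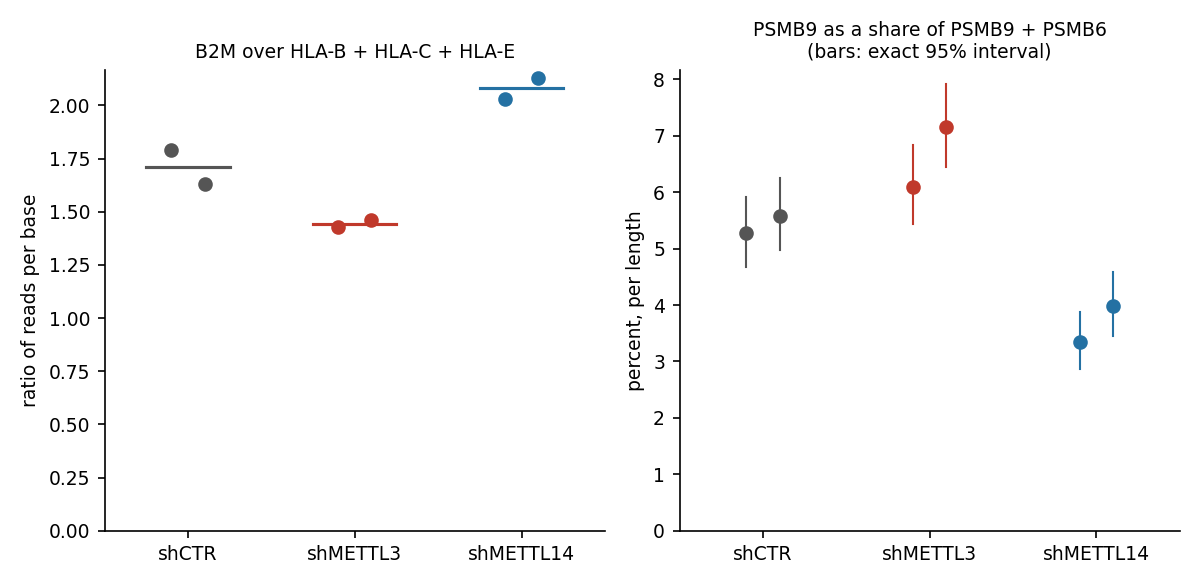
Left, the ratio of B2M to the sum of HLA-B, HLA-C and HLA-E in reads per base of the longest transcript, by library, with group means as lines. Right, PSMB9 as a percent of PSMB9 plus PSMB6 per length, by library, with exact 95% intervals. The B2M ratio is highest and the PSMB9 share lowest in the shMETTL14 libraries.

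Of the 11 genes listed for peptide loading and trimming, 8 were tested and none was called in any comparison by edgeR. Beside this, 16.5% of all genes were called in shMETTL3 against shCTR, 6.69% in shMETTL14 against shCTR and 12.1% between the knockdowns. The unadjusted p by edgeR was under 0.05 for 0, 3 and 0 of the 8 genes in these comparisons. DESeq2 called none, and the other alternatives at most 1 a comparison. CALR (calreticulin), CANX (calnexin) and PDIA3, which fold the heavy chain, stood at 907.6 ± 13.9, 735.6 ± 45.1 and 151.8 ± 6.46 TPM in shCTR cells. ERAP1, which trims peptides in the endoplasmic reticulum, stood at 36.4 ± 4.57 TPM and its relative ERAP2 at 2.90 ± 0.108. Over the tested list, log2 fold changes against shCTR ran from -0.31 for ERAP2 in shMETTL3 cells to 0.27 for TAPBPL in shMETTL14 cells. Of the 7 immunoproteasome and activator genes, all tested, only PSMB7 was called in shMETTL3 against shCTR cells (14.3% called, beside 16.5% of all genes). PSMB7 fell by 0.21 on the log2 scale (adjusted p = 0.0212 by edgeR). That call was lost without either shMETTL3 library and with library size alone as the scaling. PSME1 and PSME2, the subunits of the activator that caps the proteasome, stayed within 0.14 of 0 on the log2 scale in every comparison.

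Among the 23 tested regulators of class I transcription, 1 was called higher and 5 lower in shMETTL3 against shCTR (26.1% called, beside 16.5% of all genes), 1 higher and 1 lower in shMETTL14 against shCTR (8.70%, beside 6.69%), and 1 higher and 3 lower between the knockdowns (17.4%, beside 12.1%). NLRC5, the class I transactivator, had 33 and 41 reads in shCTR, 115 and 126 in shMETTL3, and 71 and 47 in shMETTL14 libraries. It rose in shMETTL3 cells with a log2 fold change of 1.67 (SE 0.228, adjusted p = 5.03e-05 by edgeR), and in shMETTL14 cells the log2 fold change was 0.66 (adjusted p = 0.130). NLRC5 was also higher with METTL3 than with METTL14 knockdown, by 1.01 on the log2 scale (adjusted p = 0.00290 by edgeR; 0.0849 without shMETTL14 replicate 2). IRF1, which drives class I promoters, was not called, with a log2 fold change in shMETTL3 against shCTR cells of 0.16.

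IFNGR1, a chain of the interferon gamma receptor, had 608 and 563 reads in shCTR, 503 and 448 in shMETTL3, and 719 and 739 in shMETTL14 libraries. It fell in shMETTL3 cells (log2 fold change -0.33, adjusted p = 0.0160 by edgeR) and rose in shMETTL14 cells (0.30, adjusted p = 0.0389), and those calls were lost in 3 and 7 of 13 alternatives. The first was lost without shCTR replicate 1, without shMETTL3 replicate 2 and under DESeq2, and the second without either shCTR library, shMETTL3 replicate 1 or either shMETTL14 library, with no filter and under DESeq2. The difference between the knockdowns, -0.63, passed in all 13 (adjusted p = 5.49e-05 by edgeR). EED, a core subunit of the Polycomb complex that silences class I genes in some tumours, fell in both knockdowns. It fell by 0.65 on the log2 scale in shMETTL3 cells (adjusted p = 5.17e-06 by edgeR). In shMETTL14 cells it fell by 0.38 (adjusted p = 0.00267 by edgeR), a call lost without shMETTL14 replicate 2. The core subunit EZH2 fell by 0.18 in shMETTL3 cells (adjusted p = 0.0396 by edgeR), a call kept in 5 of 13 alternatives. EZH2 in shMETTL14 cells (-0.10) and the core subunit SUZ12 in shMETTL3 (-0.01) and shMETTL14 cells (-0.04) were not called. JAK2, which signals from IFNGR1 and IFNGR2, and ATF1, a transcription factor, fell in shMETTL3 cells by 0.38 (adjusted p = 0.000661 by edgeR) and 0.39 (adjusted p = 0.00390; 0.0837 without shMETTL3 replicate 2).

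Of the 30 other interferon response genes, 20 were tested, and 10 were called higher and 3 lower in shMETTL3 against shCTR cells (65% called, beside 16.5% of all genes), 2 and 2 in shMETTL14 against shCTR (20%, beside 6.69%), and 7 and 1 between the knockdowns (40%, beside 12.1%). IFIT2, an RNA-binding antiviral protein, had 48 and 44 reads in shCTR, 212 and 240 in shMETTL3, and 56 and 44 in shMETTL14 libraries, a log2 fold change of 2.26 in shMETTL3 cells (adjusted p = 8.74e-08 by edgeR). IFITM3, which blocks virus entry, fell by 0.97 on the log2 scale in shMETTL3 (adjusted p = 1.31e-07 by edgeR) and by 0.76 in shMETTL14 cells (4.54e-06). The median log2 fold change of the 20 was 0.45 in shMETTL3 and 0.11 in shMETTL14 cells, beside 0.03 and -0.15 for the 8 class I genes. Of the 12 class II genes, HLA-DRA, HLA-DRB1 and HLA-DMB had no reads, and the 3 tested (CIITA, HLA-DMA and HLA-DOB) were not called by edgeR or DESeq2, with an unadjusted p under 0.05 for 0 of them.

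Of the 18 ligands of natural killer receptors and class I relatives, 12 were tested, and 3 were called higher and 0 lower in shMETTL3 against shCTR (25% called, beside 16.5% of all genes), 2 and 0 in shMETTL14 against shCTR (16.7%, beside 6.69%), and 3 and 2 between the knockdowns (41.7%, beside 12.1%). At an unadjusted p under 0.05 edgeR had 1 lower in each contrast with shCTR. ULBP2, a ligand of the activating receptor NKG2D, had 307 and 294 reads in shCTR, 276 and 234 in shMETTL3, and 550 and 519 in shMETTL14 libraries. It rose in shMETTL14 cells with a log2 fold change of 0.82 (adjusted p = 4.47e-05 by edgeR) and differed by -1.08 between the knockdowns (adjusted p = 7.89e-07 by edgeR), in all 13 alternatives. ULBP1 rose in shMETTL14 cells by 0.36 (adjusted p = 0.00741 by edgeR), and this was lost without either shMETTL14 library. PVR, NECTIN2 and NCR3LG1, ligands of DNAM-1 and NKp30, rose in shMETTL3 cells by 0.35, 0.30 and 0.27 (adjusted p = 0.0208, 0.00379 and 0.0122 by edgeR), and NECTIN2 alone of them stayed called in all 13 alternatives. PVR was lost without shCTR replicate 1 or either shMETTL3 library, with no filter and under DESeq2, and NCR3LG1 without shCTR replicate 2 or either shMETTL3 library. MICB, another NKG2D ligand, was higher in METTL3 than in METTL14 knockdown by 0.31 on the log2 scale (adjusted p = 0.00424 by edgeR; lost without shMETTL3 replicate 1 or shMETTL14 replicate 1).

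**Figure D5:**
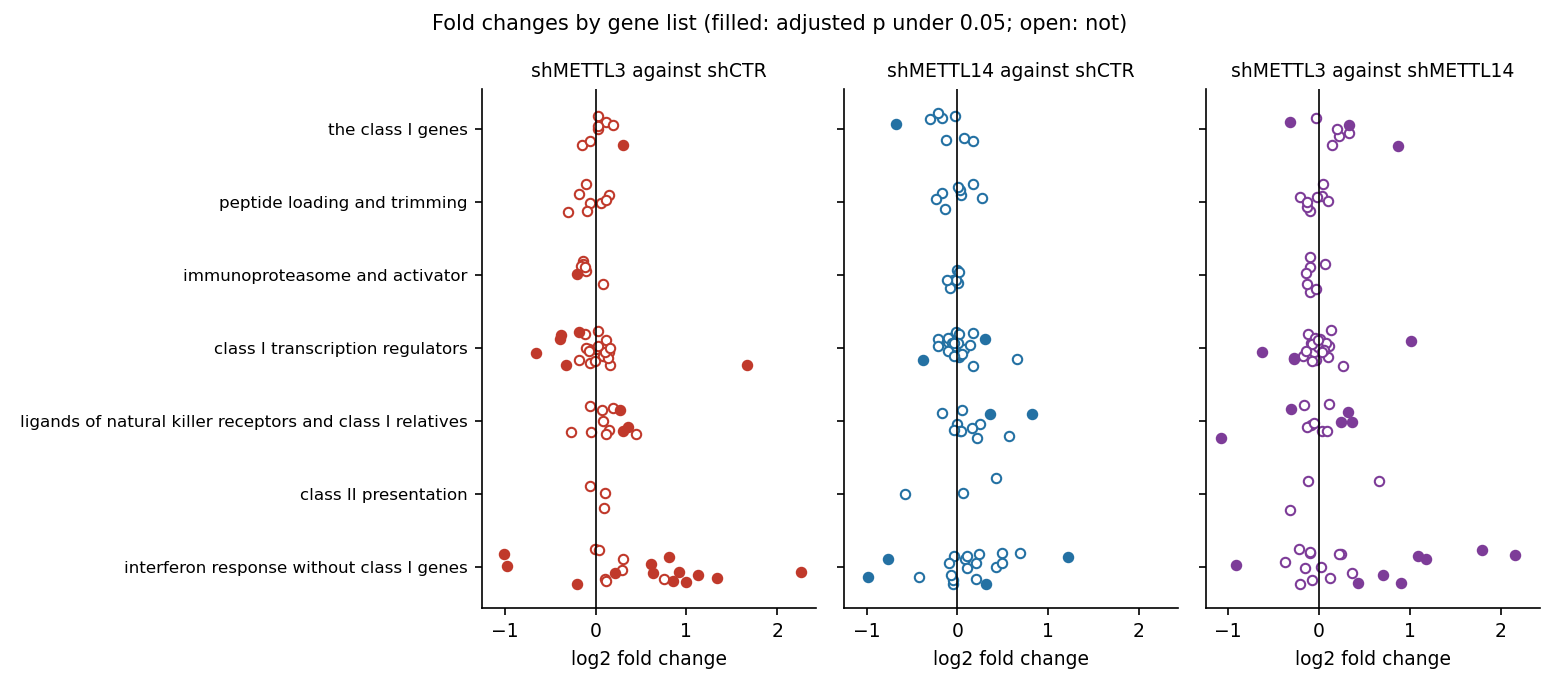
Log2 fold changes of the tested class I genes and of 6 other gene lists in the 3 comparisons, with 1 point per gene and filled points past the adjusted threshold. The class I genes lie within 0.3 of 0 in shMETTL3 against shCTR cells, where IFIT2 reaches 2.26 and NLRC5 1.67.

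All the class I genes but B2M lie between HLA-F and DAXX, chr6:29722775-33323016, where 122 other genes were tested. In shMETTL3 against shCTR cells 10 were called higher and 3 lower (10.7%), in shMETTL14 against shCTR 6 and 2 (6.56%), and between the knockdowns 9 and 2 (9.02%), beside 16.5%, 6.69% and 12.1% of all genes. The complement gene C4B, which has a near-identical copy, had 19 and 30 reads in shCTR, 116 and 144 in shMETTL3, and 52 and 36 in shMETTL14 libraries; it was named after its values were seen.

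The genes whose levels followed a class I gene most closely were found by the root mean square difference of centred log2 CPM over the 6 libraries, among 12769 genes with a mean of at least 50 reads. For B2M they were ZC3H11A, BBS12 and RBM41, at differences of 0.0284, 0.0285 and 0.0289 against a spread of 0.133 for B2M itself. For TAP1 they were HSPA9, C8orf88 and SPAST, at 0.0190, 0.0310 and 0.0347 against 0.143. For HLA-B they were SH2D2A, MIR23AHG and C1QTNF12, at 0.0673, 0.0741 and 0.0786 against 0.196. None of these 9 genes was another class I gene. Only the nearest of 12769 genes were listed for each, so this cannot tell whether class I genes moved together.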

How the data were processed

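RNA was extracted with TRIzol, enriched with oligo(dT) beads, primed with random hexamers and sequenced. The authors deposited 1 table of raw read counts per gene, not normalised; the submitters' processing notes name HTSeq 0.6.1 and hg38. The aligner, annotation and strand setting are not given in the sources used here. The table has 60675 Ensembl identifiers and 986 unannotated ones; symbols came from a name table (56558) or GENCODE v29 (497). The columns were mapped by name, and none was left unmapped.

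Counts were fitted with edgeR 4.0.16 (R 4.3.3): filterByExpr with a minimum count of 10, TMM factors, 1 quasi-likelihood fit over all 6 libraries with group as the term, and Benjamini-Hochberg adjustment over 17686 genes at 0.05. The fit was tested on simulated data. CPM used TMM-scaled library sizes; TPM divided counts by the longest annotated transcript. Intervals are 95% from the fit, with exact binomial ones for shares. Sampling noise did not account for the spread between replicates: the chi-square averaged 2.45 to 5.03 a gene. Gene coordinates are from GENCODE v29 (GRCh38), promoter windows from RefSeq GRCh38.p14.

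The members and lists were chosen with earlier results of these data known. Named were all 9 members, and from each list up to 3 genes called higher and 3 lower per comparison by fold, with at least 10 counts in every library. Loading and proteasome genes could be named freely. IRF1, EZH2, SUZ12, the class II genes and the single K562, monocyte and epithelial markers were named after their values were seen. Likeness was measured for B2M, HLA-B and TAP1. Alternatives were DESeq2 1.42.0, its size factors in edgeR, library size alone, no filter, a fit on the 4 libraries compared, a replicate block and each library left out; a GC and length correction (mgcv 1.9.3) and the protein-coding transcript length were added after the data were seen.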

Additional observations from a re-analysis of the deposited data

Results flagged for a closer look

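For 3 of the 8 tested class I genes the effects of both knockdowns differed, by the edgeR contrast of shMETTL3 against shMETTL14. B2M differed by -0.32 on the log2 scale, with 272.0 and 274.5 CPM in shMETTL3 and 327.4 and 353.5 CPM in shMETTL14 libraries. TAP1 differed by 0.33, and this did not pass without any one of the 4 libraries compared. PSMB9 differed by 0.87, with 16.5 and 19.98 CPM in shMETTL3 and 9.31 and 10.6 CPM in shMETTL14 libraries. With 2 libraries a group, no library could be tested as an outlier of its group.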

How the results depend on the processing

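Of the 5 class I calls, B2M and PSMB9 between the knockdowns passed in all 13 alternatives, PSMB9 in shMETTL14 against shCTR in 12, and HLA-C in shMETTL3 against shCTR and TAP1 between the knockdowns in 8 each; none of the 5 changed sign. The count of class I genes called in shMETTL3 against shCTR cells went from 1 to 0 with no filter, with DESeq2 and with the GC and length correction, and ran from 0 to 1 with a library left out; HLA-C then had adjusted p of 0.0741, 0.104 and 0.111. In shMETTL14 against shCTR cells it went from 1 to 3 with the GC and length correction, which added B2M (adjusted p = 0.00725 by edgeR) and HLA-E (0.0305), and ran from 0 to 2 with a library left out. The replicate numbers share no origin in the labels, and same-numbered libraries did not deviate together (correlations of 0.112, -0.0132 and -0.0272). The replicate block left the class I counts of both contrasts with shCTR at 1 and added HLA-E between the knockdowns (0.19, adjusted p = 0.0409 by edgeR). Over the 6 other lists together, 23 genes were called in shMETTL3 against shCTR (13 to 21 with a library left out), 8 in shMETTL14 against shCTR (2 to 12 with a library left out, 14 with the GC and length correction, 5 with DESeq2) and 17 between the knockdowns (8 to 18 with a library left out). Fold changes that crossed 0 were small and not called. With the GC and length correction, shMETTL3 against shCTR gave -0.0249 for HLA-B, -0.0108 for HLA-E and -0.0039 for TAP2; with a library left out it ran from -0.16 to 0.20 for HLA-B, from -0.0601 to 0.10 for HLA-E, from -0.0238 to 0.0703 for TAP2 and from -0.13 to 0.0121 for TAPBP. In shMETTL14 against shCTR, TAPBP was 0.0037 with library size alone and ran from -0.0915 to 0.0486 with a library left out, and HLA-C from -0.0395 to 0.18. With protein-coding transcripts as the length, shCTR levels moved to 9.91 TPM for HLA-B, 47.0 for HLA-C, 115.5 for HLA-E, 395.1 for B2M, 23.3 for TAP1, 22.5 for TAP2, 63.1 for TAPBP and 44.8 for PSMB9. The PSMB9 share moved to 16.2%, 19.3% and 11.4% in shCTR, shMETTL3 and shMETTL14 cells and the PSMB8 share to 0.166%, 0.116% and 0.296%. The cause of these changes was not tested. Over all genes, 2912, 1184 and 2148 were called in the 3 comparisons, and 1752, 713 and 1243 with DESeq2. PSMB8, at 0 to 7 reads, could not be tested, and HLA-B had 104 to 155 reads, which limits its precision.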
